A study of Mus musculus with 10 samples.

Results

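ERK, the last kinase of the Ras, Raf and MEK cascade, switches on a small group of genes whose mRNA levels are widely read as its output. The 10 genes described here are the ETS transcription factors Etv4, Etv5 and Etv1, the MAP kinase phosphatases Dusp4, Dusp5 and Dusp6, and the feedback inhibitors Spry2, Spry4, Spred1 and Spred2. They were looked up by symbol in the RNA-seq tables, and all 10 were listed in both, among 17658 named genes in the SB431542 table and 16719 in the T-5224 table. The set was selected on measured values, the fold changes of each inhibitor against its DMSO libraries in both experiments, so the values of these 10 genes are given as a description, without p-values.

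The libraries came from ASZ001, a mouse basal cell carcinoma (BCC) line grown in low serum. One experiment set 3 libraries of cells given 10 µM SB431542, which blocks the TGFß receptor kinase ALK5, against 3 DMSO libraries. The other set 2 libraries of cells given 20 µM T-5224, which blocks AP-1, against 2 DMSO libraries of its own. Treatment lasted 24 h in each, and all libraries were from this 1 line. The study describes the replicates as biological. The depth behind the scaling, worked out from the values of short RNAs, was between 31.8 M and 51.3 M reads a library. DMSO replicate 1 of the SB431542 experiment deviated most from the rest of its group, with an SD of 0.272 on the log2 scale over the genes tested, against 0.123 to 0.190 for the other 9 libraries.

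Once active, ERK enters the nucleus and phosphorylates transcription factors. Etv1, Etv4 and Etv5 form the PEA3 subfamily of ETS factors, are induced by ERK downstream of receptor tyrosine kinases and in turn act on genes of growth and invasion. Dusp6 and Dusp5 dephosphorylate ERK in the cytoplasm and the nucleus, Dusp4 is a nuclear phosphatase with a wider choice of MAP kinases, and Sprouty and Spred proteins restrain the pathway at the level of Ras and Raf. Because ERK induces its own inhibitors, high levels of these transcripts accompany high pathway output in many epithelia. ERK phosphorylation was not measured in these libraries.

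Promoter sequence was available for 7 of the 10 genes, in 9 windows that end at an annotated RefSeq start (GRCm38.p6, 250 bases before the start). One gene of each role is shown, 5′ to 3′ on the strand of the gene. Capitals mark CGGAAG or its reverse complement CTTCCG, called the ETS core here. Other forms of an ETS site were not searched for or marked. The first of the 2 windows of Etv5 is shown, chr16:22439571-22439820 on the minus strand. The window of Dusp6 is chr10:99262981-99263230 on the plus strand and that of Spred1 is chr2:117120821-117121070 on the plus strand.
Etv5: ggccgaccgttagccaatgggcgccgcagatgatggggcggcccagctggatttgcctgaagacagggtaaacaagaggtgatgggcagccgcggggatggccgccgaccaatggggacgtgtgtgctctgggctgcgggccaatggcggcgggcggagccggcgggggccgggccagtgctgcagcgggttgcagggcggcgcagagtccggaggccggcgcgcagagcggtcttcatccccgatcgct
Dusp6: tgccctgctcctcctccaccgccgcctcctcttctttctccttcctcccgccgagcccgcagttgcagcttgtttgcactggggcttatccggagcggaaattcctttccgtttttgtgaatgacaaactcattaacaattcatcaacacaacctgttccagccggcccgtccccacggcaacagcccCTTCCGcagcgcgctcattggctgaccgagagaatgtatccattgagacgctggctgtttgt
Spred1: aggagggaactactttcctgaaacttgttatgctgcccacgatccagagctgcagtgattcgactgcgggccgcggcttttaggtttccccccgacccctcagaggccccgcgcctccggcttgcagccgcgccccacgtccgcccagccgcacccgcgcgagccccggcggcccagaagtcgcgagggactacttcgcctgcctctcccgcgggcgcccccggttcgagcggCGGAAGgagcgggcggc

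The ETS core lay in 3 of these 9 windows, beginning 62 bases before the start of Dusp6, 17 before that of Spred1 and 43 before that of Spred2, and in 13.6% of 32851 promoter windows of the same length. The AP-1 site TGACTCA was searched on both strands and found in none of the 9, against 4.46% of all windows, and the CRE TGACGTCA and the SMAD palindrome GTCTAGAC were also not found, against 1.55% and 0.167%. No 2 matches overlapped. More distant elements were not searched.

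The DMSO libraries give the levels of these genes without inhibitor, in RPKM, read counts here scaled by the authors to the length of the gene and the depth of the library, so that levels can be compared between genes. In the SB431542 experiment the order from the highest was Spred2 at 22.5 ± 2.42 RPKM (SD, n = 3), Dusp6, Spred1, Etv4, Spry2, Etv5, Dusp5, Dusp4, Spry4 and Etv1, which was at 0.017 ± 0.0193 RPKM. Spred2 overlapped Dusp6 in this order, and Dusp5 overlapped Dusp4, while the other neighbours had separate ranges. In the T-5224 experiment Spred2 again led, at 18.3 ± 0.280 RPKM (SD, n = 2), followed by Spred1, Dusp6, Spry2, Etv4, Dusp5, Dusp4, Etv5 and Spry4, and Etv1 was listed at 0 in both DMSO libraries. Only Dusp4 and Etv5 overlapped there. For 8 of the 10 genes every DMSO library of the SB431542 experiment lay above both DMSO libraries of the T-5224 experiment, as it did for 38.1% of the 10462 genes tested in both. The mean DMSO level of Dusp6 was 20.01 RPKM in the first and 3.398 RPKM in the second, and that of Etv5 was 2.699 RPKM and 0.2975 RPKM. The tables were normalized separately, so these levels were not tested against each other.

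**Figure D1:**
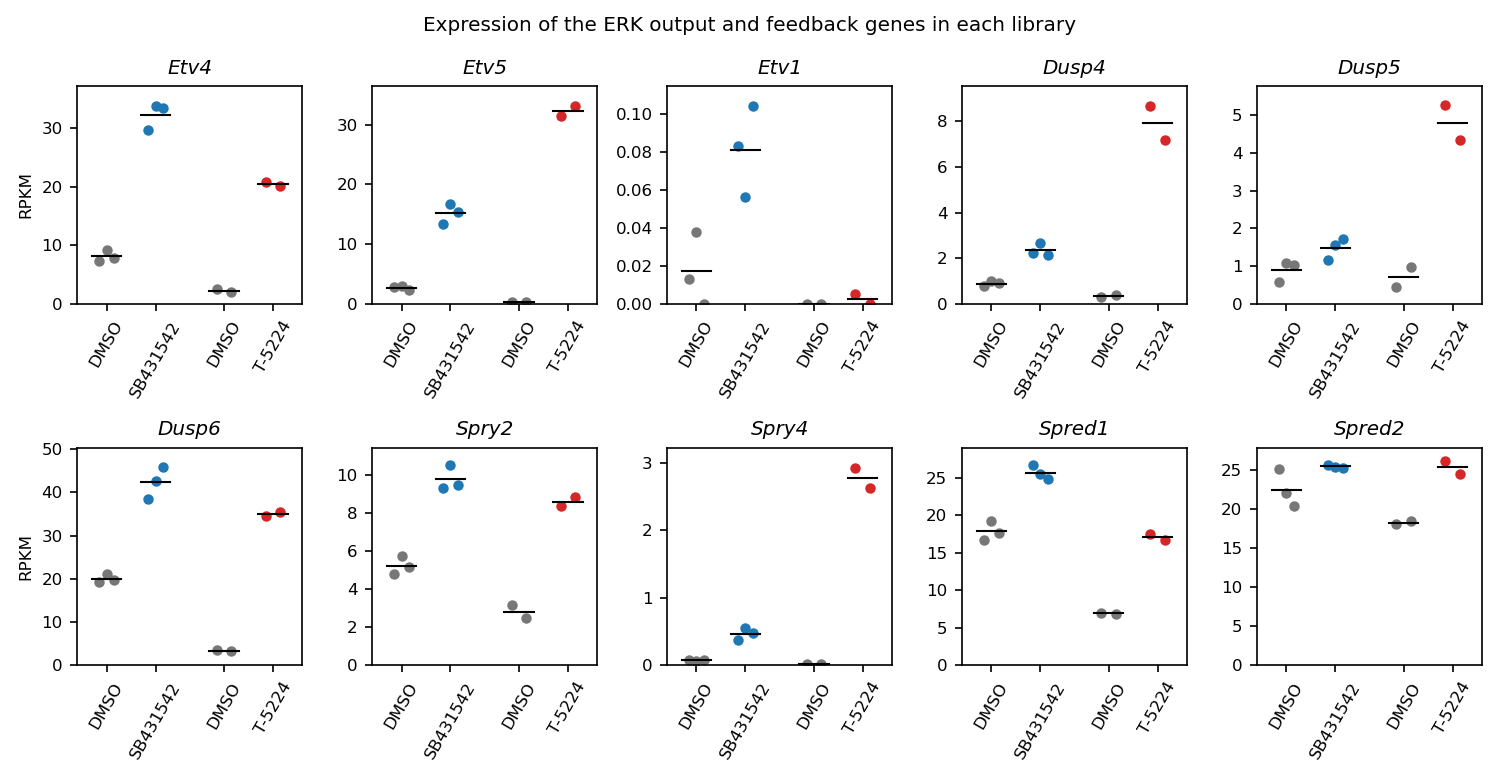
Expression (RPKM, linear axes from 0, different in each panel) of the 10 genes in every library of the SB431542 experiment (3 DMSO, 3 SB431542) and of the T-5224 experiment (2 DMSO, 2 T-5224). Points are libraries and bars are group means. Every inhibitor library lies above every DMSO library of its experiment, except for Etv1 with T-5224.

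Of the genes in the SB431542 fit, Etv5 and Etv4 had the largest rises. Etv5 was at 2.87, 2.93 and 2.29 RPKM in the DMSO libraries and at 13.4, 16.7 and 15.4 RPKM with SB431542. Its mean was 5.62 times higher, a log2 fold change of 2.29 ± 0.11 (SE) on the log2(RPKM + 0.5) scale used throughout. All treated libraries were well above all controls, and Etv5 ranked at 1 among 10842 genes tested when ordered from the largest rise. Etv4 was at 7.31, 9.19 and 7.91 RPKM in DMSO and at 29.7, 33.9 and 33.4 RPKM with SB431542, a log2 fold change of 1.93 ± 0.09 (SE), and ranked at 2. Etv1, the remaining PEA3 factor, was near the detection limit, at 0.013, 0.038 and 0 RPKM in DMSO and 0.083, 0.056 and 0.104 RPKM with SB431542. The Etv1 values correspond to about 10 reads in the 3 DMSO libraries together and about 48 with SB431542, a ratio of 4.44 with a 95% exact interval of 2.22 to 9.85 that covers counting error only. Etv1 was far below Etv4 and Etv5 in every library and too low to enter the fit. On mm9 the genes lie at chr11:101631056-101646685 (Etv4, minus strand), chr16:22381382-22439792 (Etv5, minus) and chr12:39505967-39594802 (Etv1, plus).

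Among the phosphatases, Dusp6 was the most abundant. It was at 19.2, 21.1 and 19.7 RPKM in DMSO and at 38.6, 42.7 and 45.9 RPKM with SB431542, a log2 fold change of 1.06 ± 0.08 (SE). Dusp4 was at 0.757, 0.976 and 0.921 RPKM in DMSO and at 2.24, 2.64 and 2.15 RPKM with SB431542, a log2 fold change of 1.04 ± 0.11 (SE). The groups of both genes were apart, and Dusp4 was far less abundant per length than Dusp6. Dusp5 was at 0.571, 1.07 and 1.02 RPKM in DMSO and at 1.17, 1.55 and 1.71 RPKM with SB431542, a log2 fold change of 0.52 ± 0.18 (SE). The lowest SB431542 library of Dusp5 was only just above the highest DMSO library. The genes lie on the plus strand of mm9 at chr8:35870351-35882948 (Dusp4), chr19:53603599-53616921 (Dusp5) and chr10:98725865-98730122 (Dusp6).

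The Sprouty and Spred inhibitors covered the whole span of responses. Spry4 was low, at 0.083, 0.062 and 0.080 RPKM in DMSO and at 0.374, 0.545 and 0.485 RPKM with SB431542, which is about 43 reads against 289 over 3 libraries each, a ratio of 6.22 (95% exact interval of 4.50 to 8.78, counting error only). Its mean RPKM was too low for the fit. Spry2 was at 4.80, 5.76 and 5.19 RPKM in DMSO and at 9.34, 10.5 and 9.49 RPKM with SB431542, a log2 fold change of 0.84 ± 0.08 (SE). Spred1 was at 16.7, 19.2 and 17.6 RPKM in DMSO and at 26.7, 25.5 and 24.8 RPKM with SB431542, a log2 fold change of 0.51 ± 0.07 (SE). Both genes were higher in each treated library than in any control. Spred2 was at 25.1, 22.02 and 20.4 RPKM in DMSO and at 25.7, 25.5 and 25.3 RPKM with SB431542, so DMSO replicate 1 was nearly level with the treated libraries, and its log2 fold change of 0.18 ± 0.08 (SE) was the smallest of the 8 genes in the fit. On mm9 Spry2 lies at chr14:106291166-106296036 (minus strand), Spred1 at chr2:116947110-117008015 (plus) and Spred2 at chr11:19824378-19924029 (plus).

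With SB431542, 8 of the 10 genes had a mean of at least 1 RPKM over the 6 libraries and entered the fit, of which Dusp4 and Dusp5 did so only through the treated libraries. Etv4, Etv5, Dusp4 and Dusp6 were called up (limma, over 2-fold and adjusted p under 0.05), 4 genes, where 0.231% of all genes tested were called up. None was called down, where 0.581% of all genes were called down. Spry2 and Spred1 passed the adjusted p and not the fold, so that 6 of the 8 were higher without a limit on the fold, against 10.2% of all genes. The 8 had a median log2 fold change of 0.94, beside 0.008 for all genes tested. In all 10 genes every treated library lay above every DMSO library, a pattern that 23.9% of the genes tested had, and in none did every treated library lie below, as in 21.3% of the genes tested. The contrasts served to propose these genes, so the shares describe them and carry no test. Dusp4 was just past the 2-fold limit and Spry2 just short of it, at log2 fold changes of 1.04 and 0.84. Dusp4 was not called without DMSO replicate 1 (0.97) or SB431542 replicate 2 (0.96).

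With the AP-1 inhibitor, the 8 genes in both fits had larger log2 fold changes than with SB431542, from lower mean DMSO levels. Etv5 was at 0.350 and 0.245 RPKM in DMSO and at 31.4 and 33.1 RPKM with T-5224, a ratio of means of 108.5 and a log2 fold change of 5.36 ± 0.10 (SE). It ranked at 4 among 10809 genes tested. Etv4 was at 2.44 and 2.06 RPKM in DMSO and at 20.8 and 20.2 RPKM with T-5224, a log2 fold change of 2.94 ± 0.09 (SE). Etv5 was below Etv4 in the DMSO libraries of the experiment and above it with T-5224. With SB431542 Etv5 remained below Etv4, at 15.2 ± 1.68 against 32.3 ± 2.30 RPKM (SD, n = 3). Etv1 was listed at 0 in 3 of the 4 libraries and at 0.005 RPKM, about 1 read, in T-5224 replicate 1, and so no change of it was detectable at this depth.

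The phosphatases were all higher with T-5224. Dusp6 was at 3.56 and 3.23 RPKM in DMSO and at 34.5 and 35.4 RPKM with T-5224, a log2 fold change of 3.19 ± 0.07 (SE). Dusp4 was at 0.294 and 0.386 RPKM in DMSO and at 8.68 and 7.18 RPKM with T-5224, a log2 fold change of 3.32 ± 0.12 (SE). The libraries of each group lay close together beside the gap between the groups, as they did for Dusp6. Dusp5 was at 0.431 and 0.965 RPKM in DMSO and at 5.26 and 4.34 RPKM with T-5224, a log2 fold change of 2.18 ± 0.19 (SE). Its DMSO libraries differed from each other by more than 2-fold, and still neither came near a treated library.

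Spry4, a Sprouty inhibitor that growth factors induce, had the largest ratio of means. It was at 0.014 and 0.022 RPKM in DMSO, about 6 reads in all, and at 2.93 and 2.62 RPKM with T-5224, about 1279 reads. Relative to depth this is a ratio of 151, with a 95% exact interval of 69 to 411 that covers counting error only. The fitted log2 fold change of 2.66 ± 0.14 (SE) is held down by the pseudocount. Spry2 was at 3.15 and 2.50 RPKM in DMSO and at 8.37 and 8.85 RPKM with T-5224, a log2 fold change of 1.46 ± 0.11 (SE). Spred1 went from 6.91 and 6.89 RPKM to 17.6 and 16.8 RPKM, a log2 fold change of 1.25 ± 0.07 (SE). Both were clear of the controls by several times the distance between replicates. Spred2 went from 18.1 and 18.5 RPKM to 26.2 and 24.5 RPKM, a log2 fold change of 0.46 ± 0.06 (SE), again the smallest of the set.

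With T-5224, 9 of the 10 genes entered the fit, with Etv5, Dusp4, Dusp5 and Spry4 doing so only through the treated libraries. The 8 genes other than Spred2 and Etv1 were called up, where 10.4% of all genes tested were called up (limma, over 2-fold and adjusted p under 0.05). None was called down, where 10.6% of all genes were called down. Without a limit on the fold, all 9 were higher at an adjusted p under 0.05, against 40.3% of all genes. The 9 had a median log2 fold change of 2.66, the value of Spry4, beside 0.003 for all genes tested. In 9 of the 10 both T-5224 libraries lay above both DMSO libraries, a pattern that 45.1% of the genes tested had in this experiment of 2 libraries against 2, and in none did both lie below, as in 44.5% of the genes tested. As with SB431542, the contrasts served to propose these genes, so the shares and the median describe them and carry no test. Spred1 was the called gene nearest to the limit, at 1.25, and Spred2 lay outside it at 0.46.

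The experiments share no libraries. Among the 8 genes in both fits, Etv5 had the largest log2 fold change with each inhibitor, and Spred2 had the smallest with each. The order of the genes between them moved with the pseudocount and was not tested. The treated levels were closer between the tables than the DMSO levels for Etv4, Etv5, Dusp6, Spry2, Spred1 and Spred2. Mean Dusp6 was 42.4 RPKM with SB431542 and 35.0 RPKM with T-5224, and mean Spry2 was 9.79 and 8.61 RPKM. Mean Etv5 was 15.2 and 32.3 RPKM, Dusp4 was 2.35 and 7.93 RPKM, Dusp5 was 1.48 and 4.80 RPKM and Spry4 was 0.468 and 2.78 RPKM, so these 4 genes were lower in the SB431542 libraries than in the T-5224 libraries. Doses differed and the tables were normalized separately, so the pairs are given side by side only.

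**Figure D2:**
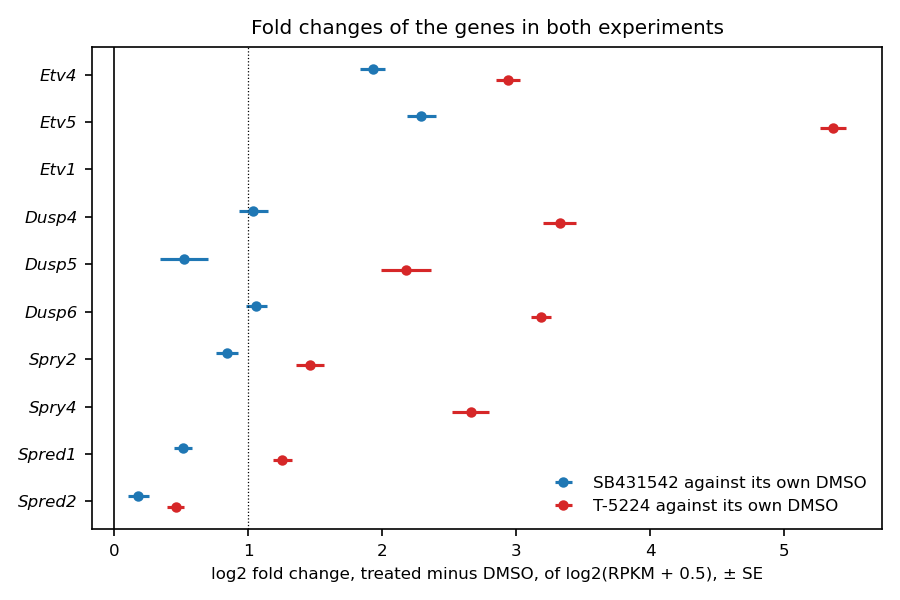
Log2 fold changes (x axis, treated minus DMSO on the log2(RPKM + 0.5) scale, bars are SE) of the genes that entered the fit, 8 with SB431542 and 9 with T-5224, with the 2-fold limit dotted. Each gene with both values lies further right with T-5224, from Spred2 at 0.18 and 0.46 to Etv5 at 2.29 and 5.36.

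The libraries were checked for other cell types, since in bulk RNA fewer cells of a type and less RNA per cell cannot be told apart. The keratinocyte markers Krt5 and Krt14 were at 4889 ± 104 and 4076 ± 187 RPKM (SD, n = 3) in DMSO in the SB431542 experiment. With SB431542, 2 of the 9 keratinocyte and BCC markers were higher, 3 lower and 4 neither at an adjusted p under 0.05 (limma), with a median log2 fold change of −0.009. Krt14 fell to 2320 ± 77.2 RPKM (limma adjusted p = 4.02e-04), as did Krt5 and Gli1 by smaller amounts, while Krt15 rose from 24.5 ± 1.54 to 34.9 ± 6.05 RPKM (adjusted p = 0.0291) and Epcam from 113.6 ± 1.37 to 133.6 ± 2.96 RPKM (adjusted p = 0.0146). The summed RPKM of the 9, mostly Krt5 and Krt14, was 9317 to 9486 in those DMSO libraries and 6570 to 7037 with SB431542, and 11830 to 12480 in the other DMSO libraries against 1693 to 1755 with T-5224. With T-5224, Krt14 fell from 5708 ± 339 to 808.5 ± 24.1 RPKM (SD, n = 2, limma adjusted p = 8.73e-12) and 5 of the 9 were called down, while Epcam went from 70.7 ± 3.74 to 124.5 ± 1.88 RPKM. Fibroblast markers, of which 6 of 7 were listed, summed to 2.43 to 2.63 RPKM in DMSO and to 3.69 to 4.13 RPKM with SB431542, carried by Dcn, which rose from 2.13 ± 0.0772 to 3.71 ± 0.254 RPKM (SD, n = 3, limma adjusted p = 0.00178), while Col1a1 and Col1a2 averaged at most 0.120 RPKM in either group. In the T-5224 experiment, with 5 of 7 listed, the sum was 2.53 to 2.58 RPKM in DMSO and 2.64 to 2.84 RPKM with T-5224. Melanocyte markers summed to at most 0.426 RPKM, and immune markers to at most 0.344 RPKM with SB431542 and in both sets of DMSO libraries. The immune sum was 4.45 to 4.47 RPKM with T-5224, carried by Cd74 at 4.44 ± 0.0113 RPKM, while the defining immune gene Ptprc was at 0 in both. Of the endothelial markers, Pecam1 was at 11.3 ± 0.789 RPKM in DMSO and 4.39 ± 0.391 RPKM with T-5224, Cdh5 was at most 0.013 RPKM in any library of that experiment, and Kdr was not listed. Pecam1 was at 5.75 ± 0.718 and 2.69 ± 0.127 RPKM (SD, n = 3) without and with SB431542. The part of the keratin, Dcn and Pecam1 changes in the values of the 10 genes was not tested.

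The rest of the pathway was read from 7 lists of 129 genes that leave out the 10. With SB431542, 96 of them were tested, 18 were higher and 14 lower at an adjusted p under 0.05 (limma), against 10.2% and 10.0% of all genes, and 1 was called up and 1 down with the 2-fold limit, against 0.231% and 0.581%. With T-5224, 94 were tested, 37 were higher and 32 lower, against 40.3% and 39.4% of all genes, and 20 were called up and 10 down, against 10.4% and 10.6%. The medians were 0.01 and 0.05 on the log2 scale. With SB431542 the shares that were higher and that were lower were thus both above those of all genes. With T-5224 the share called up was above that of all genes. The T-5224 shares called down, and higher without the fold limit, were near those of all genes, and the share that was lower was below. The lists were chosen with earlier results of these data known, so the shares describe them and carry no test. The lists were not tested as sets. Some genes named below had a DMSO mean under 1 RPKM and entered the fit only through the treated libraries. They are Areg in both experiments and Fgf21, Fos, Fosl1, Gab2 and Plaur with T-5224. They count in the shares above, and their values there are given as a description, without p-values.

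Of the ligands of receptor tyrosine kinases, 10 of 20 were tested in each experiment. With SB431542, 5 were higher and 3 lower at an adjusted p under 0.05, and with T-5224, 6 were higher and 4 lower. Areg, encoding the EGF receptor ligand amphiregulin, was at 1.02, 0.619 and 0.934 RPKM in DMSO and at 1.56, 2.37 and 2.46 RPKM with SB431542, a log2 fold change of 0.95 ± 0.18 (SE). With T-5224 it rose from 0.051 and 0.167 RPKM to 15.9 and 14.9 RPKM (4.71 ± 0.12). Epgn, another ligand of the EGF receptor, rose with both, by 0.87 ± 0.11 with SB431542 (limma adjusted p = 0.00230) and by 3.72 ± 0.08 with T-5224 (adjusted p = 1.21e-11). Nrg1, a ligand of Erbb3 and Erbb4, rose by 0.85 ± 0.16 (limma adjusted p = 0.0122) and 1.39 ± 0.12 (adjusted p = 7.09e-07). Fgf21, a secreted FGF, rose with T-5224 from 0.665 ± 0.221 to 26.5 ± 0.523 RPKM (SD, n = 2). The ligands that fell with both were Pdgfb, called down with each (log2 fold changes of −1.35 ± 0.13 and −1.89 ± 0.07), Fgf1 (−0.91 ± 0.15 and −2.29 ± 0.13) and Fgf5. Pdgfa was the most abundant ligand, at 105.4 ± 1.72 RPKM (SD, n = 3) in DMSO beside SB431542.

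None of the receptors was called up with either inhibitor. By limma's adjusted p under 0.05, 1 of the 10 tested was higher with SB431542 (Fgfr3) and 2 were lower (Fgfr2 and Igf1r). With T-5224, 8 of the 10 receptors tested were lower at an adjusted p under 0.05 and 0 higher (limma), and the median log2 fold change was −0.48. At an unadjusted p under 0.05 the count of higher receptors was also 0. The 2 that passed in neither direction were Egfr and Insr (adjusted p = 0.156 and 0.212). Fgfr2, the main FGF receptor of epithelia, fell from 71.7 ± 1.19 to 13.6 ± 0.452 RPKM (SD, n = 2) with T-5224, or −2.35 ± 0.06 on the log2 scale (SE, limma adjusted p = 2.53e-11), and with SB431542 from 47.0 ± 1.23 to 30.3 ± 1.92 RPKM (SD, n = 3), −0.63 ± 0.06 (adjusted p = 9.94e-04). Fgfr3, Fgfrl1 and Erbb2 were called down with T-5224 at −2.56, −1.19 and −1.15, whereas Fgfr3 rose with SB431542 (0.81 ± 0.13, limma adjusted p = 0.00608). Egfr itself was at 23.0 ± 0.741 RPKM in DMSO and 21.5 ± 0.971 RPKM with SB431542, and at 16.8 ± 0.132 and 18.01 ± 0.133 RPKM in the T-5224 experiment. Met, the HGF receptor, was the most abundant receptor in the SB431542 experiment, at 78.1 ± 2.24 RPKM in DMSO.

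Of the adaptors and kinases of the cascade, 28 were tested. With SB431542, 0 were higher and 3 lower at an adjusted p under 0.05 (Rras, Gab1 and Mras, limma), none was called, and 1 was higher and 4 lower at an unadjusted p under 0.05. With T-5224, 10 of 28 were higher and 7 lower. The ERK-activated kinase Mknk1 was called up (1.77 ± 0.07, limma adjusted p = 1.56e-09), while Mknk2 was called down (−1.31 ± 0.06, adjusted p = 5.18e-09). The adaptor Gab2 was also called up (1.21 ± 0.15), but was at 0.96 and not called with a pseudocount of 1. Map2k1, which encodes MEK1, went from 37.5 ± 0.475 to 21.2 ± 0.719 RPKM. The most abundant genes of the list in DMSO were Grb2 beside SB431542, at 86.5 ± 2.19 RPKM, and Map2k2 beside T-5224, at 99.2 ± 2.22 RPKM.

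Of the inhibitors outside the set, Spry1 alone was called, and it was called up with both. This Sprouty gene was at 3.15, 2.79 and 2.66 RPKM in DMSO and at 6.13, 6.99 and 7.31 RPKM with SB431542, a log2 fold change of 1.12 ± 0.09 (SE, limma adjusted p = 4.43e-04). With T-5224 it rose from 1.42 and 0.888 RPKM to 6.56 and 5.84 RPKM (2.03 ± 0.14, adjusted p = 1.35e-07). The groups did not overlap in either experiment. Spred3 was lower in every treated library, at 0.534 ± 0.0405 and 0.379 ± 0.0328 RPKM (SD, n = 3) without and with SB431542 and at 0.396 ± 0.0134 and 0.113 ± 0.0481 RPKM (SD, n = 2) without and with T-5224, and was too low to be tested. Pebp1, which encodes the Raf kinase inhibitor protein, was the most abundant of this list, at 321.8 ± 61.7 RPKM (SD, n = 3) in DMSO beside SB431542, and was not called.

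Of the other MAP kinase phosphatases, 7 were tested. At an adjusted p under 0.05, 1 was higher and 1 lower with SB431542 and 2 were higher and 2 lower with T-5224, and Dusp10 was the gene called, down with T-5224. Dusp10, which acts on JNK and p38 rather than ERK, went from 8.48 ± 0.189 to 2.63 ± 0.426 RPKM (SD, n = 2) with T-5224 (−1.53 ± 0.10, limma adjusted p = 9.92e-08) and from 5.38 ± 0.981 to 3.51 ± 0.0919 RPKM (SD, n = 3) with SB431542 (−0.54 ± 0.12, adjusted p = 0.0188). Dusp1, the immediate early phosphatase, was at 8.72 ± 0.821 and 9.09 ± 1.12 RPKM without and with SB431542 and at 8.35 ± 0.204 and 8.62 ± 0.538 RPKM without and with T-5224. Dusp14, the most abundant of the list, went from 33.6 ± 0.372 to 18.1 ± 0.392 RPKM with T-5224.

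None of the other ETS factors was called in either experiment, of 14 tested in each. With SB431542, 0 were higher and 4 lower at an adjusted p under 0.05 (limma), with 0 and 6 at an unadjusted p under 0.05, and with T-5224, 4 were higher and 6 lower. Erf, an ETS repressor that ERK expels from the nucleus, was lower with both, from 56.5 ± 0.911 to 46.1 ± 0.737 RPKM with SB431542 and from 59.4 ± 1.79 to 36.4 ± 2.24 RPKM with T-5224. Ets2 fell with SB431542 (−0.61 ± 0.06, limma adjusted p = 6.90e-04) and rose with T-5224 (0.27 ± 0.05, adjusted p = 4.15e-04).

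Of the other ERK-induced genes, 16 were tested with SB431542 and 15 with T-5224. With SB431542, an adjusted p under 0.05 was reached by 8 that were higher and 0 that were lower (limma), 10 and 0 at an unadjusted p under 0.05, none was called, and the median log2 fold change was 0.36. With T-5224, 12 were higher and 3 lower (Ccnd1, Epha4 and Emp1), 11 were called up and 1 down, and the median was 2.26. Plaur, the urokinase receptor, went from 2.28 ± 0.220 to 4.93 ± 0.876 RPKM (SD, n = 3) with SB431542 (0.95 ± 0.13, limma adjusted p = 0.00364) and from 0.275 ± 0.0792 to 17.2 ± 0.780 RPKM (SD, n = 2) with T-5224 (4.51 ± 0.11). Plaur passed the 2-fold limit with SB431542 without DMSO replicate 2 (1.02) or SB431542 replicate 1 (1.09). The Eph receptor Epha2 rose with both, by 0.50 ± 0.09 and 3.05 ± 0.06, as did the early response gene Ier3, by 0.38 ± 0.08 and 3.17 ± 0.07. The AP-1 subunit Fosl1 rose with T-5224 by 5.25 ± 0.09, and with SB431542 its log2 fold change was 0.59 ± 0.20 (limma adjusted p = 0.0770). Fos and Lif rose with T-5224 by 2.74 ± 0.10 and 3.43 ± 0.09 and had log2 fold changes of −0.07 and 0.15 with SB431542, with overlapping groups. The Eph receptor Epha4 was the gene called down with T-5224, at −2.61 ± 0.07. The most abundant genes in DMSO were Emp1, at 163.8 ± 5.88 RPKM beside SB431542, and Tnfrsf12a, at 77.9 ± 0.219 RPKM beside T-5224. Egr1, a direct target of the pathway, was at 15.5 ± 3.12 and 17.6 ± 1.23 RPKM without and with SB431542 and rose from 6.90 ± 0.164 to 12.6 ± 0.0134 RPKM with T-5224 (limma adjusted p = 8.07e-07). Some of these genes are also known targets of AP-1 and of stress pathways.

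**Figure D3:**
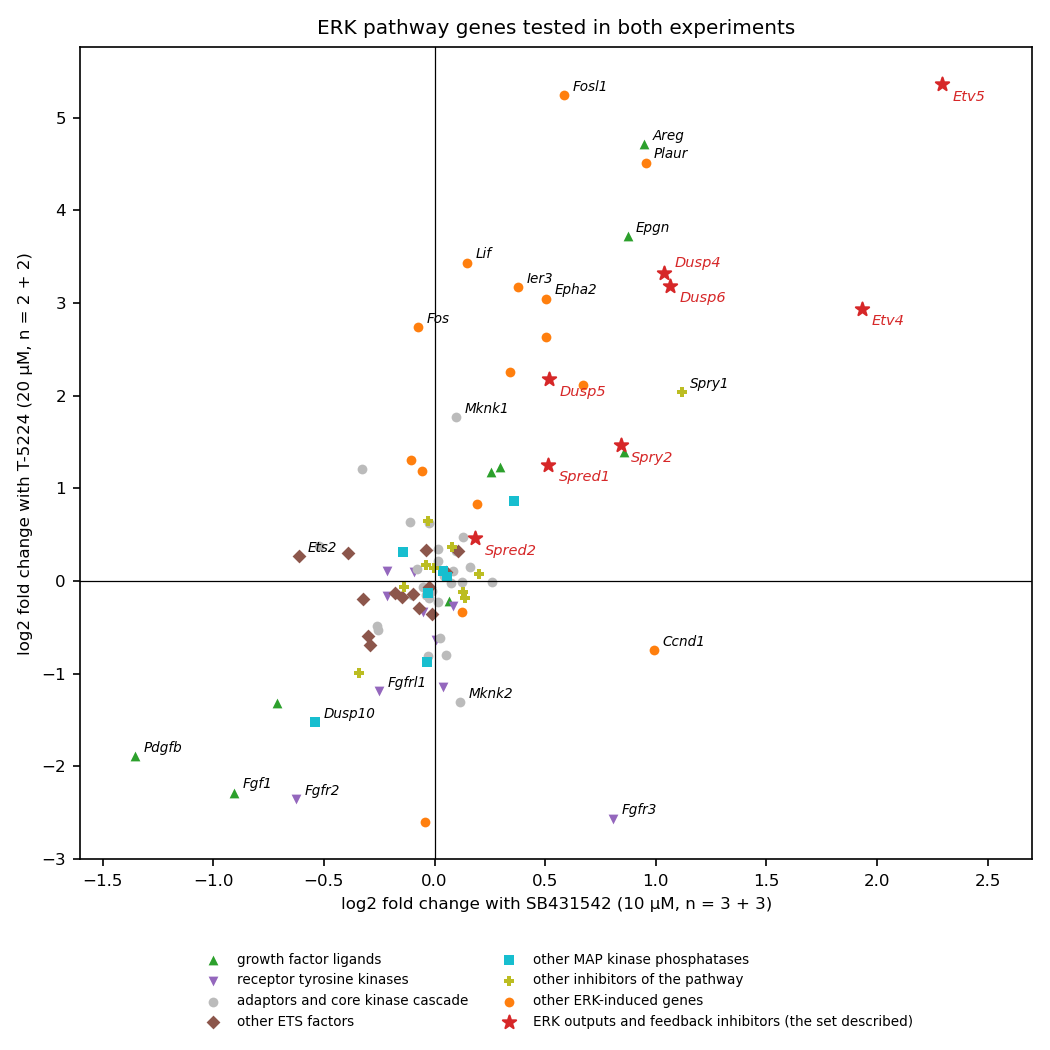
Log2 fold changes with SB431542 (x axis) and with T-5224 (y axis) of 93 pathway genes outside the set and of 8 genes of the set (red stars) that were tested in both experiments. All 8 stars lie in the upper right, and Ccnd1 and Fgfr3 lie at the lower right.

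The genes whose profile over the 10 libraries lay nearest to each gene of the set were looked for among the 10462 genes tested in both experiments, by Euclidean distance on the log2 scale after subtracting the mean of the DMSO libraries of the same table. Dusp4 and Dusp6 were close neighbours of each other (distance 0.448), and Phlda2, an imprinted growth regulator, was nearest to Dusp6 (0.414) and second to Dusp4 (0.454). The nearest to Etv4 was the chemokine Ccl20 (0.731), followed by Dusp6. The nearest to Etv5 were Areg and Plaur, at distances of 2.58 and 2.63. Dusp5 was nearest to Slc25a33 and Siah2 (0.498 and 0.571), Spry2 to Psat1 and Cdca7 (0.273 and 0.352), Spred1 to Haspin and Acsl5 (0.175 and 0.203) and Spred2 to Sumo3 and Arap2 (0.132 and 0.148). The distances are smaller where the changes are smaller, and they rest on 10 libraries in 4 groups.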

How the data were processed

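RNA-seq was done on ASZ001 cells by the authors with a stranded mRNA kit, and reads were aligned with TopHat to mm9. The authors deposited 1 RPKM table per experiment, made with HOMER. Whether counting used strand is also not given. Of the 10 value columns, 0 went unused. The 2 DMSO columns of the T-5224 table are numbered 1 and 2 there and 4 and 5 in the labels, and were used by group. Rows whose name had become a date (22 and 23) were left out.

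A gene entered the fit when its RPKM averaged 1 or more over the table (10842 and 10809 genes). Values were fitted as log2(RPKM + 0.5) by limma 3.58.1 (R 4.3.3) with a trended prior variance, and p-values were adjusted by Benjamini-Hochberg over every gene in the fit. The study's methods give DESeq2 on counts, which were not analysed here. Fold changes of low genes are understated on this scale. A gene was called with a fold change over 2 and an adjusted p under 0.05. The fit was tested on simulated data. P-values set the difference between groups against the spread between these libraries, moderated by the prior variance over all genes in the fit.

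The 10 genes and the lists were chosen with earlier results of these data known. Named genes are the 10, and from each list up to 6 called genes by the size of the larger fold change and the most abundant in DMSO, plus the 2 nearest profiles for each gene. The genes named outside this rule (Ccnd1, Egfr, Egr1, Dusp1, Epha4, Fgf5, Gab1, Igf1r, Insr, Map2k1, Mras, Rras and Spred3) were chosen after their values were seen. The scaling depth was read from RefSeq small RNAs under 250 bases with fewer than 6 reads, whose RPKM lie on whole reads (within 0.05 of a read for 99.1% to 100.0% of values). Reads behind a gene are RPKM times that depth and the longest GENCODE mRNA on mm9, and so are approximate. Promoter windows are from RefSeq on GRCm38.p6, cut to the bases before the start. Alternatives were other pseudocounts, filters and scalings, no limit on the fold, a replicate block and each library left out.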

Additional observations from a re-analysis of the deposited data

How the results depend on the processing

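The direction was kept under every alternative that gave a value for the 8 of the 10 genes in the SB431542 fit and the 9 in the T-5224 fit, and Etv1 in both experiments and Spry4 with SB431542 were not followed. Called up with SB431542 were 3 to 6 of the genes and with T-5224 5 to 9. The 6 and the 9 came with no limit on the fold, where 10.2% and 40.3% of all genes were higher. The 5 came from a mean RPKM of at least 5, which leaves fewer genes in the fit. With the fold limit kept, the alternatives called 10 to 38 of all genes up with SB431542. With T-5224 the other pseudocounts, filters and scalings called 835 to 1239 of all genes up. With either T-5224 library left out, Spry4 fell below the lowest mean tested. The calls of Dusp4 with SB431542 were also lost with a pseudocount of 1 (log2 fold change 0.83). No scaling moved the median of all genes by over 0.1.

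Of the other pathway genes with SB431542, 1 was called up and 1 down, and the counts were 3 and 2 with a pseudocount of 0.1, 3 up with quantile normalization, 0 up with a mean RPKM of at least 5, and 18 and 14 with no limit on the fold change. With each library left out they ranged from 1 to 4 up and from 1 to 2 down. The highest counts came without SB431542 replicate 1 (4 up) and without DMSO replicate 3 (2 down). With T-5224 they were 37 up and 32 down with no limit on the fold change. The replicate number as a block in the SB431542 experiment left 4 of the 10 genes called up, and 1 up and 1 down among the other pathway genes. The deviations of libraries that share a number were correlated at −0.148, 0.151 and −0.0949, so the numbers were not taken as pairs. No paired analysis was possible for T-5224 because the groups share no replicate numbers in the labels.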

Other observations

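Among the pathway genes tested in both experiments, 28 passed an adjusted p under 0.05 in each (limma), 12 of them higher with both inhibitors, 12 lower with both and 4 in opposite directions. Of the 1882 genes of the whole table that passed in each, 18.2% were in opposite directions. The 4 are Ccnd1, Fgfr3, Ets2 and Rras. Ccnd1, which encodes cyclin D1 and is a usual output of the ERK pathway, was at 42.5, 47.4 and 44.7 RPKM in DMSO and at 81.5, 92.7 and 94.97 RPKM with SB431542, a log2 fold change of 0.99 ± 0.07 (SE, limma adjusted p = 3.11e-04), just short of 2-fold. With T-5224 it fell from 20.6 and 19.8 RPKM to 11.8 and 11.9 RPKM (−0.75 ± 0.06, adjusted p = 7.25e-07). The groups did not overlap in either experiment, and Ccnd1 passed the 2-fold limit without DMSO replicate 2 (1.03) and without SB431542 replicate 1 (1.06). Fgfr3, an FGF receptor of the epidermis, rose from 5.45 ± 0.931 to 9.83 ± 0.882 RPKM (SD, n = 3) with SB431542 (limma adjusted p = 0.00608) and fell from 7.39 ± 0.692 to 0.832 ± 0.0990 RPKM (SD, n = 2) with T-5224 (adjusted p = 2.26e-09). The difference between the inhibitors was not tested for these genes, since each has its own controls and table.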
